A study of Mus musculus with 4 samples.

Results

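The genes described here are the MHC class I presentation genes of mouse adipose tissue, 10 of the 32285 mouse genes measured in each of 4 single-cell RNA libraries. They are H2-D1, H2-K1, B2m, H2-Q4, H2-Q6, H2-Q7, H2-T22, H2-T23, H2-M3 and Tap1. They were listed by name and chosen with KO to WT values of these libraries in view, so every level and ratio below is a description and no test was run. Cells came from subcutaneous (SC) or visceral intraperitoneal (IP) adipose tissue of male mice aged 7 months that had 5 months of high-fat diet. The KO was Tie2e-cre; TERTfl/fl; mTmG and the WT was Tie2e-cre; TERT+/+; mTmG, so both carried the recombinase and the reporter. Tie2e-cre is driven by regulatory sequence of Tie2, a gene of endothelial cells (EC), and mTmG switches a cell from tdTomato to GFP where the recombinase has acted. There was 1 library for each of WT SC, KO SC, WT IP and KO IP. The number of mice in a library, and the strain background of these mice, are not given in the sources used here, and the labels name both cells and nuclei.

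MHC class I molecules display peptides from inside the cell at its surface, where CD8 T cells and NK cells read them. A molecule is a heavy chain bound to B2m, the shared light chain, and Tap1 is a subunit of the transporter that moves peptides to it. H2-D1 and H2-K1 encode the classical heavy chains. The other H2 genes listed are nonclassical: H2-Q6 and H2-Q7 encode Qa-2, H2-T23 encodes Qa-1 and H2-M3 presents formylated peptides. The H2 genes and Tap1 lie in the H2 complex of chromosome 17, which varies between inbred mouse strains in sequence and gene content, while B2m lies on chromosome 2.

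The cells compared here were kept from 4927 barcodes and numbered 969 in WT SC and 1960 in KO SC, with 673 and 517 in IP of the same genotypes. Their median depth ran from 6708.5 to 13054 UMIs, a UMI being 1 counted RNA molecule. Tert, the targeted gene, was counted 3 and 2 times in the SC libraries of WT and KO, 8 and 9 times in those of IP, and 0 times in the 23 EC, so the deletion could not be checked at this depth. Classes were set by marker UMIs. T cells numbered 462, 1165, 119 and 124, and adipose stromal cells (ASC) numbered 103, 199, 273 and 217, in the order WT SC, KO SC, WT IP, KO IP. B cells were numerous only in SC, with 309 and 479 cells. All 10 T cell, B cell and ASC markers were detected in each of these classes. The same markers set the classes, so this is no separate check on them. KO SC and WT IP shared 93 cell barcodes, of which 77 were among the 199 ASC of KO SC. These held 2.77% of the UMIs of that class, and ASC values of KO SC are given with and without them.

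H2-D1 and H2-K1 stand 1.26 Mb apart and point in opposite directions on the chromosome. On GRCm38, H2-D1 spans chr17:35262730-35267499 on the plus strand and H2-K1 spans chr17:33996017-34000347 on the minus strand. B2m spans chr2:122147686-122153083 on the plus strand. The bases before their start sites are shown because H2-D1 and H2-K1 have similar promoters but KO to WT ratios of opposite sign in most classes. Each run is the 250 bases before the RefSeq start site (build GRCm38.p6), 5′ to 3′. Capitals mark exact matches, on either strand, to TTTCNNTTC (a word like the core of an interferon response element), GGGNNTTCC (a kappaB-like word) and TGATGAC (an X2-like word). These matches did not overlap.
H2-D1: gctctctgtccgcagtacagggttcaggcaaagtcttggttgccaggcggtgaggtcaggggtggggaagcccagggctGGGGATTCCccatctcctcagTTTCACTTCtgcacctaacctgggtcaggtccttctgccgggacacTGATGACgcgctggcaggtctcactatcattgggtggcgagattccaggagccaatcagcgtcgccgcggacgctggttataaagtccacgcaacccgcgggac
H2-K1: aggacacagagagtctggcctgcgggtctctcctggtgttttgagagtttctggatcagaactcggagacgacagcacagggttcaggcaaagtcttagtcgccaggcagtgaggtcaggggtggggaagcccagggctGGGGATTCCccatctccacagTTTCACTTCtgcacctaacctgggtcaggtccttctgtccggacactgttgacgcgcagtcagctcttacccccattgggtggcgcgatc
B2m: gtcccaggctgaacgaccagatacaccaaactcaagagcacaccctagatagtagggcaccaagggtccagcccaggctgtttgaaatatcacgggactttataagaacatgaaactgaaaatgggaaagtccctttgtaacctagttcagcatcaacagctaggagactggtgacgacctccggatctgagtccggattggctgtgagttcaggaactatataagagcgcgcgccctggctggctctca
The H2-D1 run lies at chr17:35262844-35263093, the H2-K1 run at chr17:34000348-34000597 on the minus strand and the B2m run at chr2:122147437-122147686. Aligned over 239 bases of their promoter entries, H2-D1 and H2-K1 had 88.3% identical bases. Of the 10 members, 6 held the first word (H2-D1, H2-K1, H2-Q4, H2-Q6, H2-Q7 and H2-M3), against 6.31% of 32851 promoter windows of this length. The kappaB-like word was in 5 members and 4.98% of windows, and the X2-like word in 6 members and 2.69% of windows. H2-T23, Tap1 and B2m held no exact match to these words in this window. Other forms of these elements were not searched, so a gene without a match may still hold one. The B2m run, for example, holds gaaactgaaa, which the first word does not match.

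H2-D1 was higher in KO than in WT in every class compared. Levels are UMIs per 1000000 UMIs of the class (CPM), with 95% intervals that cover counting error only. In T cells, H2-D1 stood at 1442 CPM in WT SC and 2733 in KO SC, and at 2039 and 4194 in WT and KO of IP. In B cells of SC it was 1214 CPM in WT and 2081 in KO. In ASC it was 1164 in WT and 1482 in KO of SC, and 918 and 1349 in IP. Each KO library therefore lay above the WT library of its depot, and the log2 ratios of KO to WT were 0.92 (0.88 to 0.96) in T cells of SC, 1.04 (0.96 to 1.12) in T cells of IP, 0.78 (0.71 to 0.85) in B cells of SC, 0.35 (0.27 to 0.43) in ASC of SC and 0.56 (0.50 to 0.61) in ASC of IP.

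**Figure D1:**
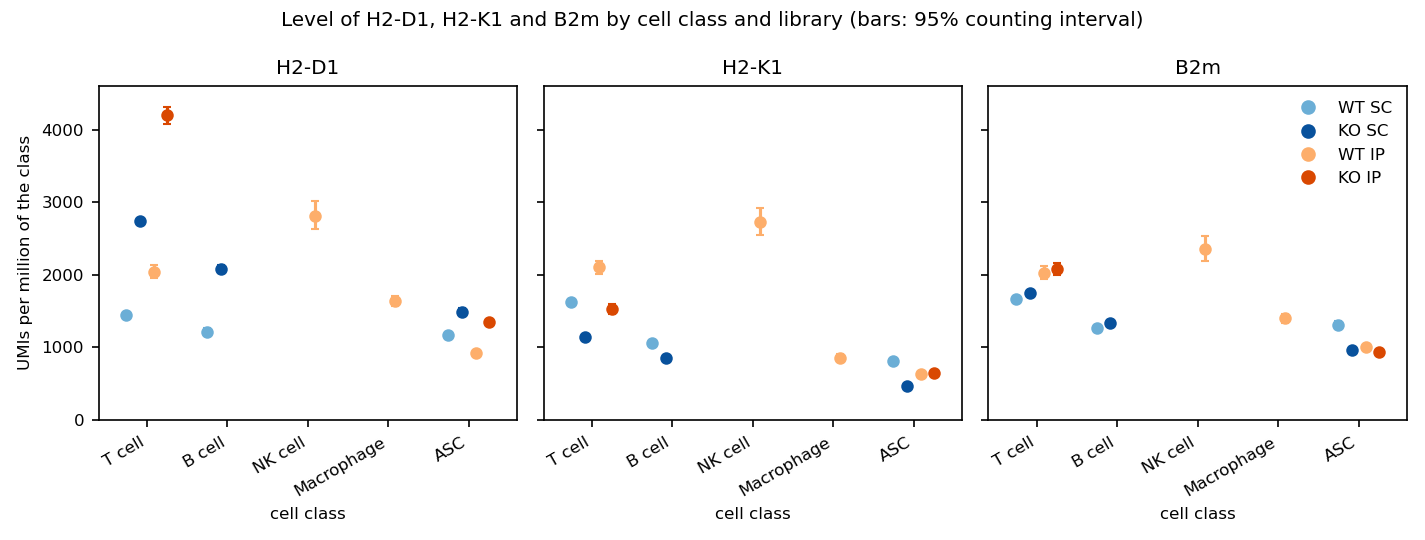
CPM of the class (y axis) for H2-D1, H2-K1 and B2m in each cell class (x axis) and library (colour), as points with 95% counting intervals, for classes of at least 30 cells. H2-D1 is higher in KO in every pair (2733 against 1442 CPM in T cells of SC), H2-K1 is lower in KO in all pairs but ASC of IP, and B2m differs little except in ASC of SC.

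H2-K1, the other classical heavy chain, went the other way in most classes. It stood at 1630 CPM in T cells of WT SC and 1140 in KO SC, and at 2100 in T cells of WT IP and 1527 in KO IP. B cells of SC had 1057 CPM in WT and 852 in KO. ASC had 811 in WT SC and 464 in KO SC, but 637 and 647 in WT and KO of IP. The log2 ratio was -0.52 and -0.46 in T cells of SC and IP, -0.31 in B cells of SC and -0.81 in ASC of SC, all beyond counting error. It was 0.02 (-0.05 to 0.09) in ASC of IP, where no difference was detectable. Without the shared barcodes the ratios in ASC of SC were -0.82 for H2-K1 and 0.37 for H2-D1.

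B2m, the light chain on another chromosome, differed far less. Its level was 1666 CPM in T cells of WT SC and 1746 in KO SC, 2024 and 2077 in WT and KO of IP, and 1260 and 1332 in B cells of WT and KO SC. The log2 ratios were 0.07, 0.04 and 0.08, against a median over all genes of -0.13, 0.11 and -0.08 in the same comparisons. ASC of SC stood apart, with 1302 CPM in WT and 956 in KO and a log2 ratio of -0.45 (-0.54 to -0.35), or -0.44 without the shared barcodes. In ASC of IP the ratio was -0.09 (-0.15 to -0.04), which turned to 0.05 when a cell took the class with most marker UMIs.

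**Figure D2:**
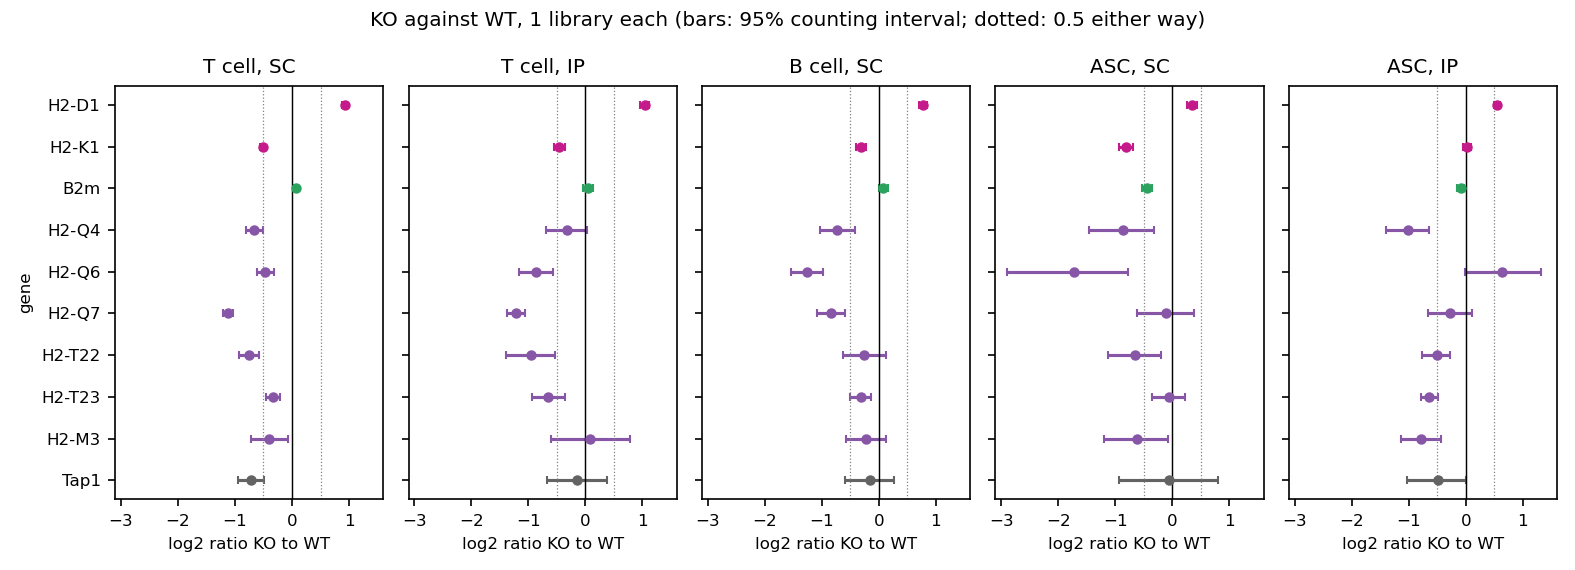
Log2 ratio of KO to WT (x axis) for the 10 genes (y axis) in 5 comparisons of 1 library with 1 library, as points with 95% counting intervals and dotted lines at 0.5 either way. H2-D1 lies right of 0 in all panels (0.35 to 1.04), B2m near 0 except in ASC of SC (-0.45), and most other H2 genes lie left of 0.

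Relative to B2m, the H2-D1 ratio was higher in KO by 0.85, 1.002, 0.70, 0.79 and 0.65 on the log2 scale in T cells of SC, T cells of IP, B cells of SC, ASC of SC and ASC of IP. For H2-K1 the same values were -0.58, -0.50, -0.39, -0.36 and 0.11. The number of H2-D1 UMIs per H2-K1 UMI drew these together. In T cells it was 0.88 in WT SC and 2.40 in KO SC, and 0.97 and 2.75 in WT and KO of IP. B cells of SC had 1.15 in WT and 2.44 in KO. ASC had 1.43 in WT and 3.196 in KO of SC, and 1.44 and 2.09 in IP. In T cells and ASC the ratio was alike in the WT libraries of both depots, and in each class it was higher in KO, by 2.71, 2.83, 2.13, 2.23 and 1.45 times in the order above. In the 77 shared barcodes among ASC of KO SC it was 1.29, from 36 and 28 UMIs, against 3.26 in the other 122 ASC of that library. Across the 14 alternative settings run, the log2 difference in this ratio between KO and WT stayed between 0.51 and 1.71. Settings of scaling, totals, gene filter and fold could not change it.

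Smaller classes were added after the values were seen. Macrophages of IP, with 83 cells in WT and 27 in KO, had 1.91 and 3.63 H2-D1 UMIs per H2-K1 UMI. B cells of IP, with 22 and 25 cells, had 1.10 and 2.61. NK cells had 0.93 and 1.03 in WT of SC and IP, from 17 and 36 cells, and 1.95 and 2.30 in KO, from only 8 and 7 cells. Neutrophils did not separate, with 4.25 and 3.6 in WT and 5 and 3.86 in KO, from at most 22 cells a library. EC, the cells the recombinase was meant for, were too few, with 17 cells in WT IP and at most 3 in the other libraries. In SC the order was the other way in mural cells, at 3 in WT and 2.5 in KO from 3 and 5 cells, and in EC, at 1.17 and 0.83 from 1 and 2 cells. In IP it was 1 and 2.33 in mural cells, from 1 and 7 cells, and 1.26 and 3.05 in EC, from 17 and 3. Dendritic cells had 1.12 and 1.78 in WT and KO of SC, from 7 and 9 cells. In IP they had 2.02 and 3.42, from 20 and 10 cells. Macrophages of SC had 2.375 and 3.67, from 5 and 6 cells.

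The shift was spread over cells rather than carried by a few. Among T cells with at least 10 UMIs of H2-D1 and H2-K1 together, the median share of H2-D1 was 46.4% in WT SC (10th to 90th percentile 32.8 to 60.0%) and 71.1% in KO SC (60.0 to 82.1%). In IP the medians were 48.7% and 74.2%. H2-D1 UMIs outnumbered H2-K1 UMIs in 32.1% of such T cells in WT SC and 98.1% in KO SC. B cells of SC had medians of 53.6% and 70.7%. The medians in ASC were 59.4% and 78.6% in SC and 60.3% and 69.4% in IP. Cells of a library share that library and are not replicates of a genotype.

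**Figure D3:**
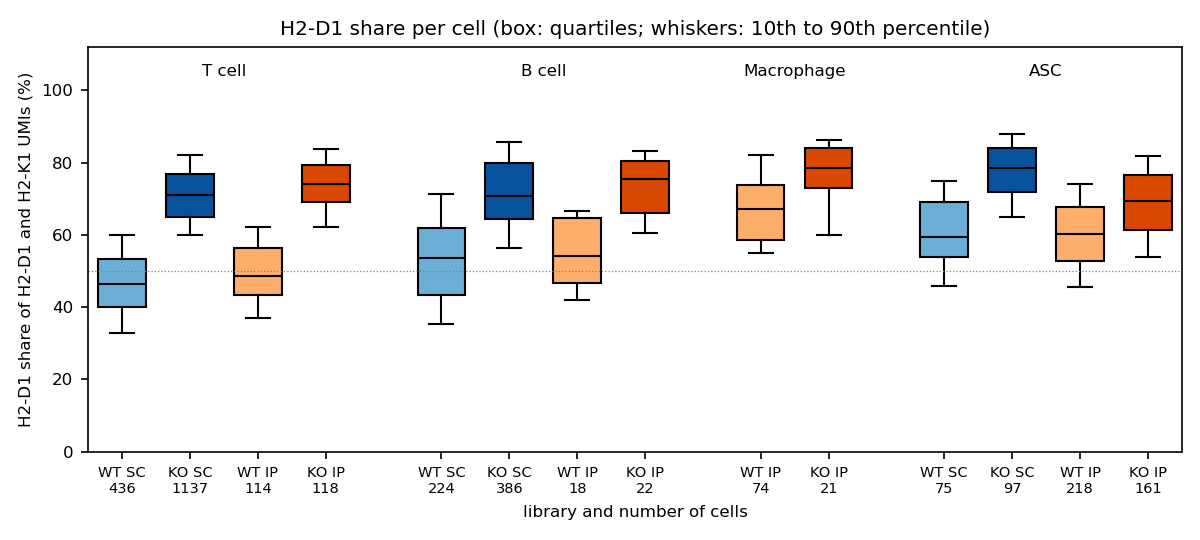
H2-D1 share of the H2-D1 and H2-K1 UMIs of a cell (y axis, %) by class and library (x axis, with the number of cells), with boxes at the quartiles, whiskers at the 10th and 90th percentiles and a dotted line at 50%. KO boxes sit above WT boxes in each class, for example at medians of 71.1% and 46.4% in T cells of SC.

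The ratio was also taken by T cell subset and by reporter within a library. CD8 and CD4 T cells had 0.85 and 0.90 H2-D1 UMIs per H2-K1 UMI in WT SC and 2.23 and 2.53 in KO SC, while those of IP had 0.82 and 0.96 in WT and 2.75 and 2.42 in KO. In T cells of KO SC it was 2.44 in 471 cells with a GFP UMI and 2.49 in 74 cells with tdTomato only. The 694 T cells of that library without a GFP UMI had 2.37. ASC of KO SC had 3.21 in 72 cells with a GFP UMI and 3.18 in 127 cells without, although the median depth of these groups was 13414 and 755 UMIs. ASC of WT SC did differ, with 1.24 in 42 cells with a GFP UMI and 1.76 in 61 without, and H2-K1 was higher in the first by 0.63 on the log2 scale, beyond counting error. The median depth of these 42 and 61 cells was 25439.5 and 8142 UMIs. In IP, ASC with and without a GFP UMI had 1.34 and 1.51 in WT, and 2.30 and 2.02 in KO. T cells of IP had 0.97 and 0.99 in WT, and 2.92 and 2.65 in KO. In these IP groups H2-D1 differed beyond counting error, by -0.25 and 0.34 in ASC of WT and KO. In T cells of WT and KO it differed by 0.21 and 0.18. A cell without a GFP UMI may carry the switched reporter undetected.

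The Qa-2 genes were lower in KO in lymphocytes. H2-Q7 stood at 498 CPM in T cells of WT SC and 228 in KO SC, at 960 and 414 in WT and KO of IP, and at 177 and 98.7 in B cells of WT and KO SC. Its log2 ratios were -1.13 (-1.21 to -1.04), -1.21 (-1.38 to -1.05) and -0.84 (-1.08 to -0.60). After each T cell was thinned to 2000 UMIs, 62.6% of T cells in WT SC and 37.3% in KO SC had an H2-Q7 UMI, and 94.8% and 78.5% did without thinning. For comparison, 1.95% and 1.12% of these T cells had a UMI of the B cell gene Cd79a, at median depths of 9136 and 7848. H2-Q6 had 146 CPM in T cells of WT SC and 106 in KO SC, 248 and 136 in WT and KO of IP, and 166 and 69.6 in B cells of WT and KO SC. All KO values of both genes in lymphocytes lay below those of WT in the same class and depot.

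In ASC the Qa-2 genes were low. H2-Q6 had 39 and 11 UMIs in WT and KO of SC and 36 and 46 in IP, or 21.4, 6.25, 5.84 and 9.11 CPM. Its log2 ratio was -1.73 (-2.89 to -0.78) in SC and 0.64 (-0.02 to 1.31) in IP. In WT SC, 34 of the 39 UMIs lay in the 42 ASC with a GFP UMI, at 35.7 CPM, while the 61 without one had 5.73 CPM, the same level as the 127 ASC without one in KO SC. The median depth of these 42 and 61 cells was 25439.5 and 8142 UMIs. As a measure of free lymphocyte RNA in ASC, the B cell gene Cd79a had 2.74 and 13.6 CPM in ASC of WT and KO SC. It had 1.14 and 1.19 in ASC of WT and KO IP. The T cell gene Cd3e had 1.10, 2.84, 1.46 and 0 CPM in the same order. In the other direction, the stromal gene Dcn had 12.3 CPM in T cells of WT IP and 15.1 in KO IP. Its level in ASC of those libraries was 11846 and 13168. The part of free RNA in these low values was not tested. H2-Q7 in ASC had 40.04 and 36.9 CPM in WT and KO SC and 23.05 and 19.0 in WT and KO IP, with intervals of the ratio that held 0.

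The other nonclassical genes were lower in KO in most comparisons. H2-Q4 had log2 ratios of -0.66, -0.32, -0.73, -0.87 and -1.01 in the order T cells of SC, T cells of IP, B cells of SC, ASC of SC and ASC of IP, all but T cells of IP beyond counting error. For H2-T22, which some gamma delta T cells recognise, they were -0.76, -0.95, -0.26, -0.66 and -0.51, and all but that of B cells were beyond counting error. H2-T23 gave -0.34, -0.65, -0.32, -0.07 and -0.64, of which ASC of SC was within counting error. H2-M3 ran from -0.78 in ASC of IP to 0.09 in T cells of IP and was lower beyond counting error in 3 of the 5. Relative to B2m, itself lower in KO in ASC of SC, intervals there held 0 for 3 of these genes. The values were -0.43 (-0.97 to 0.12) for H2-Q4, -0.21 (-0.67 to 0.24) for H2-T22 and -0.18 (-0.72 to 0.37) for H2-M3. H2-T23 was higher there, at 0.38 (0.08 to 0.68). Intervals relative to B2m lay below 0 in 4, 3, 4 and 2 of the 5 comparisons for H2-Q4, H2-T22, H2-T23 and H2-M3. Tap1 was lower beyond counting error only in T cells of SC, at 37.7 CPM in KO and 62.4 in WT, with a log2 ratio of -0.73 (-0.95 to -0.50).

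These ratios are read against all genes. A gene was called past the fold at a log2 ratio of at least 0.5 or at most -0.5, among genes with at least 50 UMIs in the 2 libraries together, a filter that all 10 members passed. In T cells of SC, 1 member was past the fold upward and 5 downward, where 3.69% and 14.5% of all genes were. T cells of IP had 1 and 4, against 18.6% and 6.69%, and B cells of SC had 1 and 3, against 4.45% and 9.96%. In ASC of SC it was 0 and 5, against 7.81% and 9%, and in ASC of IP it was 2 and 4, against 11.7% and 6.9%. The median log2 ratio over the members was -0.49, -0.39, -0.28, -0.53 and -0.39, beside -0.13, 0.11, -0.08, -0.01 and 0.04 over all genes. Since the members were chosen on this contrast, nothing is read from these counts.

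The other genes of the pathway were taken list by list. Of 12 peptide loading and trimming genes, such as Tap2, Tapbp and the immunoproteasome subunits, 12, 12, 12, 11 and 12 passed the filter in the order above. The counts past the fold upward and downward were 0 and 2, 3 and 1, 0 and 2, 0 and 0, and 1 and 1, with medians of -0.13, 0.21, -0.19, -0.05 and 0.13. Tap2, the partner of Tap1, had -0.51 in T cells of SC, -0.82 in B cells of SC and -0.57 in ASC of IP. Psmb9, a subunit of the immunoproteasome that makes peptides, had -0.54 in T cells of SC but 0.55 in T cells of IP and 0.57 in ASC of IP. Of 8 regulators, of which 7, 6, 6, 5 and 8 passed the filter, Nlrc5, the transactivator of class I genes, had -0.70 in B cells of SC and -0.73 in ASC of IP, and Irf1, an interferon-induced activator, had 0.67 in ASC of SC. Rfxap, a subunit of the RFX complex, had 0.63 in T cells of IP with an interval that held 0, and no other regulator was past the fold.

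The further class I and class I-like genes were mostly too low to compare, with 2, 0, 2, 3 and 5 of the 11 found in the tables passing the filter. H2-Q10 and Hfe, an iron regulator, had -2.27 and -0.92 in ASC of IP, the only values past the fold in this list. H2-Q1 was under the filter, with 0 UMIs in each WT class compared, while T cells of KO had 44 in SC and 11 in IP, and B cells of KO SC had 10. Of 12 interferon-stimulated genes, 5 were past the fold upward and 0 downward in T cells of SC. The median there was 0.26, beside -0.49 over the members and -0.13 over all genes. In ASC of SC the counts were 0 and 4 of 10 genes that passed, and in ASC of IP 3 and 4 of 12. T cells of IP had 1 and 2 of 5 genes, and B cells of SC 1 and 0 of 3.

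Non-member genes of chromosome 17 were compared with the rest of the genome. The members there span 3.28 Mb, from chr17:33996017 to chr17:37274484, with 184 other features between them. In T cells of SC, 27 of 72 such genes (37.5%) were past the fold downward, against 14.3% on other chromosomes. In B cells of SC it was 14 of 62 (22.6%) against 9.75%. The shares were 5.13% and 6.58% in T cells of IP, 8.89% and 8.85% in ASC of SC, and 7.04% and 6.74% in ASC of IP. This downward share was above that of other chromosomes in SC lymphocytes and within 2 percentage points of it in the other comparisons. Past the fold upward, the interval held 6.94% of genes in T cells of SC against 3.49% elsewhere, 25.6% against 18.6% in T cells of IP, 3.23% against 4.41% in B cells, 13.3% against 7.72% in ASC of SC, and 12.7% against 11.6% in ASC of IP. These differences were not tested. The comparisons of a library share its cells and are not independent of each other.

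**Figure D4:**
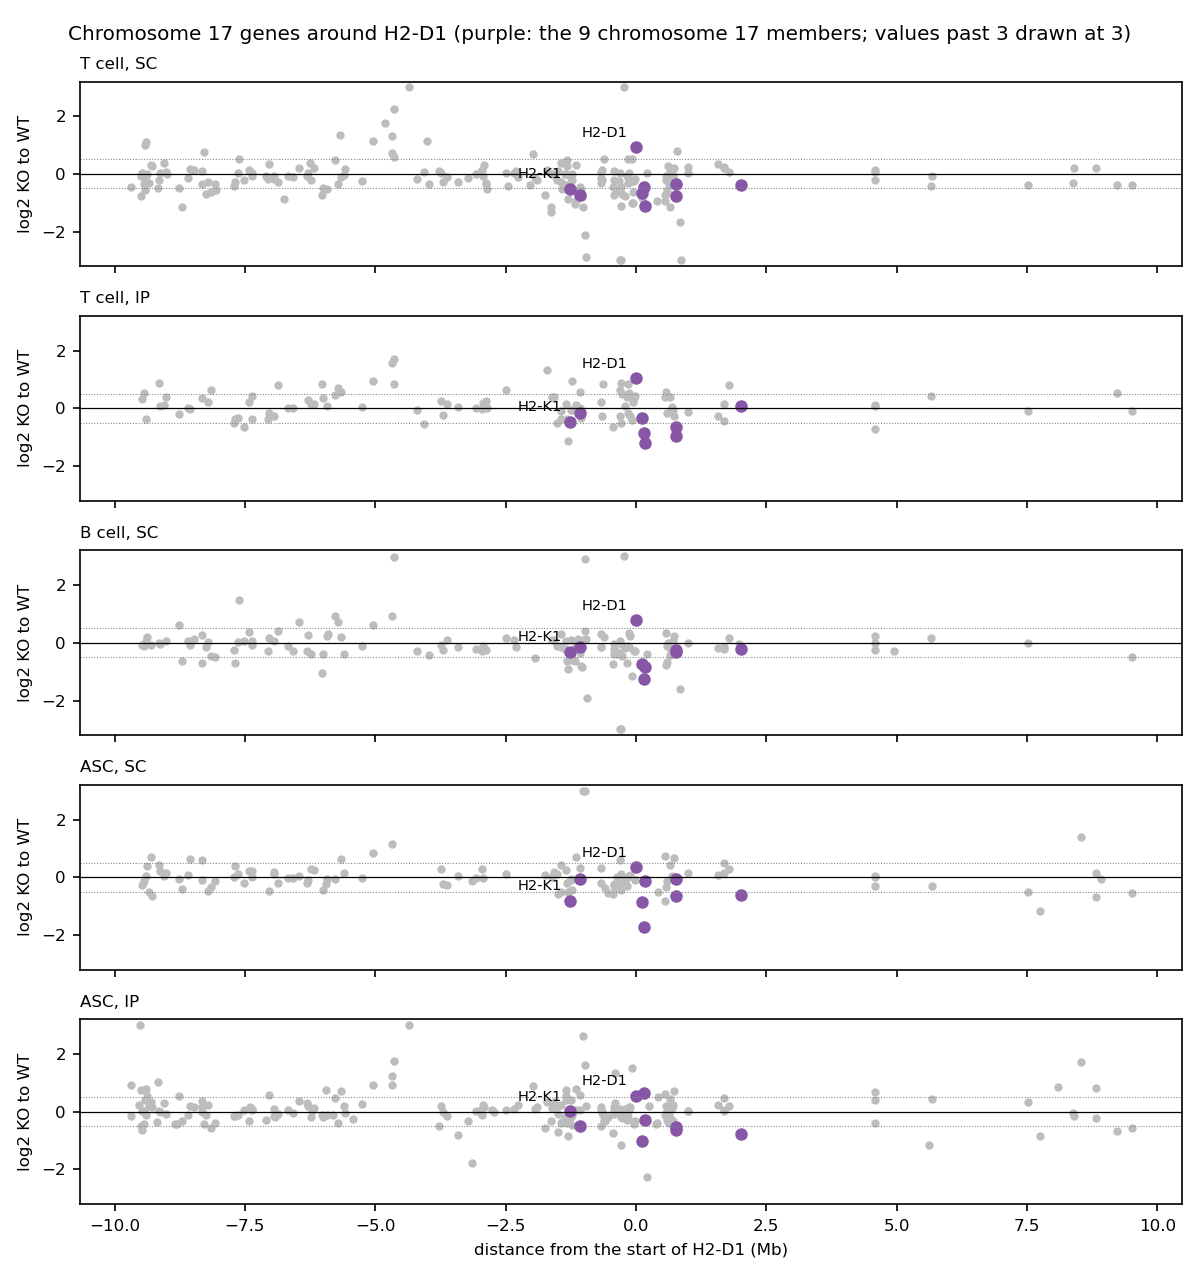
Log2 ratio of KO to WT (y axis) against distance from the start of H2-D1 in Mb (x axis) for chromosome 17 genes that passed the filter, with members in purple, other genes in grey and values past 3 drawn at 3. H2-D1 lies above H2-Q4 and H2-Q7 in all 5 panels (0.92 against -0.66 and -1.13 in T cells of SC). H2-Q6, which lies between them, is above H2-D1 in ASC of IP, at 0.64 against 0.56.

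Of 4271 genes that passed the filter in all 5 comparisons, 9 were past the fold upward in at least 4 of them and 18 downward. Chromosome 17 carried 3 of the 9 and 6 of the 18, while 4.92% of the 4271 genes lie on it. H2-D1 was the upward member among them, and H2-Q4 and H2-T22 were the downward ones. The members were chosen with KO to WT values of these libraries in view, so no excess on chromosome 17 is read from these counts, which include them. The chromosome 17 share of the non-members was not tested. The other chromosome 17 genes of the upward set, named after their values were seen, were Glo1 and Btbd9, which stand 4.68 and 5.05 Mb before H2-D1. Glo1, a glyoxalase that removes methylglyoxal, had log2 ratios of 1.32, 1.57, 0.94, 1.15 and 0.93, and Btbd9 had 1.15, 0.95, 0.63, 0.86 and 0.94, all beyond counting error. The downward non-members on chromosome 17, named in the same way, were Rps18 (-1.12 to -0.51), Rps2 (-0.96 to -0.65), Stk19 (-0.75 to -0.47) and Hspa1a (-4.49 to 0.10). Stk19 and Hspa1a lie between the outermost members. On other chromosomes, and also named after their values were seen, Gm10260 had log2 ratios from 6.01 to 6.97, Gm11361 from 3.53 to 3.89 and Gm8797 from -3.72 to -2.96 over the 5 comparisons. The haemoglobin genes Hba-a1, Hba-a2, Hbb-bs and Hbb-bt were lower in KO in all 5, down to -8.56. Genes that moved the same way in these libraries were therefore not limited to chromosome 17. As background, a segment around Glo1 is known to differ in copy number between inbred strains. The chromosome 17 haplotypes of these mice are not given in the sources used here. Their part in the H2 values was not tested, and with 1 library a group they and the Tert genotype cannot be told apart.

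Near-identical copies add to the uncertainty of single H2 genes. Of the 25-base words of the longest coding transcript, 35.4% in H2-D1, 32.5% in H2-K1, 51.6% in H2-Q4, 58.6% in H2-Q6, 54.2% in H2-Q7, 69.7% in H2-T22 and 56.6% in H2-T23 also occurred in another gene. In H2-T22 most of these were shared with H2-T10. B2m shared 0%, Tap1 1.88% and H2-M3 6.51%. H2-D1 and H2-K1 share words with each other (16.7% of those of H2-D1), so reads of one can be dropped or moved to the other. These were 3' libraries, and the shares differed in the last 500 bases of the transcripts. There they were 34.5% in H2-D1, 15.8% in H2-K1, 60.9% in H2-Q4 and 64.3% in H2-Q6. H2-Q7 had 19.7%, H2-T22 77.1% and H2-T23 75.4%. In those bases 8.40% of the words of H2-D1 occurred in H2-K1. H2-Q4, H2-T22, H2-T23, Tap1 and B2m also overlap a gene of the opposite strand.

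Across cell classes, most members were highest in lymphocytes and lowest in ASC, with exceptions. In WT IP, H2-Q4, H2-T22 and H2-T23 were lowest in macrophages and H2-M3 in T cells. In SC, B2m was lowest in B cells of WT, and H2-M3 in T cells of both libraries. Of these exceptions, H2-T23 and H2-M3 in WT IP, B2m in WT SC and H2-M3 in KO SC were within counting error of ASC. In WT IP, the library with the most classes, NK cells had the highest value for 9 of the 10 genes. Their lead over the next class was within counting error for H2-Q4, H2-Q7, H2-M3 and Tap1. The share of all genes highest in NK cells was not counted. H2-Q7 stood at 1052 CPM in NK cells, 960 in T cells, 49.8 in macrophages and 23.05 in ASC. H2-D1 had 2815, 2039, 1633 and 918 CPM in the same order, and B2m 2352, 2024, 1398 and 1001. T cells stood above ASC for all 10 genes in KO IP. In SC, the order was T cells, B cells, ASC for 6 members in WT and 7 in KO. H2-M3 differed, with its highest SC values in B cells, at 71.3 CPM in WT and 61.1 in KO. Of 80 neighbouring pairs in these orders, 16 did not differ beyond counting error, among them NK and T cells for H2-Q7 and B cells and ASC of WT SC for H2-D1.

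Over the 12 class and library profiles with at least 30 cells, the highest level was 58.0 times the lowest for H2-Q6 and 55.4 times for H2-Q7. It was 4.57 times for H2-D1, 5.88 for H2-K1, 2.50 for B2m and 2.33 for H2-T23. The profile of log2 CPM of H2-K1 followed the mean of the 8 H2 genes with a Pearson r of 0.95, B2m with 0.90 and H2-D1 with 0.62. H2-K1 and H2-D1 are themselves part of that mean and B2m is not, so these r values are not like for like. Among 3577 genes of at least 50 CPM on average, the non-members most like that mean were Ubr2 (0.976), Pspc1 (0.974), Trappc8 (0.974), Ankib1 (0.970) and Birc6 (0.966). These 12 points share libraries and depth, and the values are descriptions.

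IP was also set against SC within a genotype. In WT T cells all 10 had log2 ratios of IP to SC above 0, with a median of 0.35 beside 0.02 over all genes. H2-D1 (0.50), H2-Q6 (0.76) and H2-Q7 (0.95) were past the fold upward and none downward, where 14.7% and 14.6% of all genes were. In KO T cells 9 of 10 were above 0 and H2-T22 had -0.05, with a median of 0.43 beside 0.29 over all genes. H2-D1 (0.62), H2-Q7 (0.86), H2-M3 (0.81) and Tap1 (0.62) were past the fold upward, and none downward, against 35.2% and 10.8%, so the share of members upward was near the background. B2m had 0.25 there, and -0.03 when the ratios were centred on the median gene. In WT ASC, H2-T23 (0.59) was past the fold upward and H2-Q6 (-1.87) and H2-Q7 (-0.80) downward, against 20% and 16.1%. In KO ASC, only H2-Q7 (-0.96) was past the fold, downward, against 22.5% and 13.7%, and it had -0.98 without the shared barcodes.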

How the data were processed

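Single-cell 3' RNA libraries of 4 groups were analysed, 1 library a group. The authors deposited raw UMI counts, and the file headers name Cell Ranger 7.0.0. The submitters' processing notes name mm10 and STAR 2.6. Whether intronic reads were counted, and how cells were called, is not given in the sources used here. Reads that match several genes can be dropped or moved, and reads of a haplotype unlike the reference can align to another H2 gene or be lost.

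A barcode was kept with 200 or more detected genes and mitochondrial UMIs of no more than 25%. Scrublet (in scanpy 1.11.5) called 17 doublets (0.411%), which were removed, and others may remain. A cell took a class with at least 3 marker UMIs from 2 genes and 3 times those of any other class, and the rest stayed unassigned. Within a library, the UMIs of a class were added up and given as CPM, and 0.5 UMI was added to each count before a ratio. The 95% intervals were exact Poisson for levels, exact binomial for ratios and shares (Clopper-Pearson), and from the 4 counts for ratios of ratios. They cover counting error only. With 1 library a group no test was made. The scripts were tested on simulated data. Positions came from GENCODE M21 (GRCm38), where 32158 of 32290 feature identifiers matched, and promoters from RefSeq, which held all 10 members. The genes named were the members, genes of listed pathways, and the 5 non-members most like the mean of the H2 genes; exceptions are marked. The members and lists were chosen with earlier results of these data known. Alternatives covered cell filters, class rule, scaling, thinning, gene filter, pseudocount, fold and reporter rule. Other settings were chosen after seeing the data: dropping shared barcodes, classes of at least 20 cells, and cells without GFP as the unmarked side. Python 3.11.15, numpy 2.4.6 and scipy 1.17.1 were used.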

Additional observations from a re-analysis of the deposited data

Results flagged for a closer look

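In ASC, the estimated KO to WT ratio had opposite signs in the depots for H2-K1 and H2-Q6, with intervals that did not overlap, although both intervals of IP held 0. H2-K1 had a log2 ratio of -0.81 in SC and 0.0216 in IP. H2-Q6 had -1.73 in SC and 0.64 in IP, from 11 to 46 UMIs a library. In WT SC, 34 of the 39 H2-Q6 UMIs lay in the 42 ASC with a GFP UMI, at 35.7 CPM, against 5.73 CPM in the 61 without one. The median depth of these 42 and 61 cells was 25439.5 and 8142 UMIs. No test of SC against IP ratios was possible with 1 library a group.

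Barcodes with under 200 genes, of which more than 97% of UMIs were haemoglobin, entered no comparison. They held 19 UMIs of the 10 genes in WT SC and 17 in KO SC, with 26 and 20 in the IP libraries, each above the 3 UMIs that a count of 0 allows. The H2-D1 and H2-K1 UMIs among them were 5 and 5 in WT SC and 15 and 0 in KO SC, with 5 and 3 in WT IP and 13 and 3 in KO IP.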

How the results depend on the processing

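Across 14 alternative settings, the H2-D1 to H2-K1 and H2-D1 to B2m ratios stayed higher in KO in all 5 comparisons. Centring on the median gene and totals without mitochondrial and ribosomal genes cancel out of these ratios. The gene filters and the fold do not enter them, so none of these settings could change them. With cells weighted equally, the log2 difference in ASC of SC was 0.83 to H2-K1 and 0.63 to B2m, 2 members were past the fold between KO and WT in ASC of IP (6 in the values reported) and 3 between depots in KO ASC (1 reported). With cells thinned to 2000 UMIs, which leaves fewer UMIs and fewer genes past the filter, the difference to H2-K1 was 1.503 in T cells of SC, 1.71 in T cells of IP and 1.40 in ASC of SC, and the difference to B2m was 0.55 and 0.47 in ASC of SC and IP. The H2-K1 to B2m difference in ASC of IP turned to -0.13. Members past the fold then numbered 1 in ASC of SC, 1 in ASC of IP, 1 between depots in WT ASC and 0 in KO ASC. With the class of most marker UMIs, H2-D1 relative to B2m in ASC of IP was 0.78, B2m there turned from -0.09 to 0.0498, H2-D1 between depots in KO ASC turned from -0.14 to 0.15, and 3 members were past the fold in that comparison. It was 2 with called doublets kept, 3 with 5 marker UMIs and 5 times, and 3 with ratios centred on the median gene. In KO T cells between depots, 2 members (4 reported) were past the fold with that centring and 2 with totals without mitochondrial and ribosomal genes, where B2m turned to -0.0341 and -0.0153. With cells without GFP as the unmarked side, H2-K1 in T cells of KO SC turned from 0.22 to -0.0144. The cause of these changes was not tested. The classes of at least 20 cells are given in the report only. No paired analysis was possible because each group held 1 library.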
